A study of Mus musculus with 10 samples.

Results

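The genes described here carry the β-adrenergic signal to the stored fat of the brown adipocyte. They are the receptors Adrb1 and Adrb3, the phosphodiesterase Pde3b, the protein kinase A subunit Prkar2b, the lipases Pnpla2, Lipe and Mgll, and the lipase regulators Abhd5 and G0s2. The members were chosen by name for their place in this pathway, with earlier results of these data known. All 9 were found, each as 1 row, among the 15075 genes measured. RNA was sequenced from interscapular brown adipose tissue (iBAT) of 10 mice, with 1 poly(A) library per mouse. The 5 Control mice are called wild-type in the labels and, per the study's methods, carried a floxed exon 4 on both alleles of Crls1, the gene of cardiolipin synthase, without Cre. The 5 AdCKO mice carried the same floxed alleles with Adipoq-Cre, a transgene that drives recombination in adipocytes. Mice of both groups were C57BL/6, 20 weeks of age and housed at room temperature.

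Noradrenaline from sympathetic nerves binds β-adrenergic receptors, which couple through the stimulatory G protein to adenylyl cyclase and raise cAMP. The cyclic nucleotide frees the catalytic subunits of protein kinase A from their regulatory subunits, and the kinase then phosphorylates perilipin and hormone-sensitive lipase on the lipid droplet. Triglyceride is cleaved in steps by adipose triglyceride lipase, hormone-sensitive lipase and monoglyceride lipase, and in brown adipocytes the released fatty acids are both the fuel and the activator of thermogenic respiration.

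Levels are given as deposited, as normalized reads for each kb of exon counted, a scale on which genes can also be compared with each other. Library totals of normalized reads were 7615403 to 8171138 in Control and 5419800 to 5843024 in AdCKO, and since reads cannot be recovered from these values the sequencing depth is unknown. Crls1, over all its counted exons, was measured at 813 to 1291 in Control and at 193 to 249 in AdCKO, a fall to 20.5% of the Control mean (log2 difference -2.27 ± 0.13 SE, adjusted p = 3.53e-08), so no library went against its label. Brown adipocyte markers, which define the labelled tissue, summed to between 43812 and 65394 in Control and between 13859 and 31420 in AdCKO. Of these markers, 4 of 8 were called lower and 1 higher, and Ucp1 and Cidea had by far the highest levels. General adipocyte genes, of which Fabp4 had by far the highest level, summed to 155209 to 185323 in Control and 113205 to 134499 in AdCKO (3 of 6 were called lower and 1 higher). No marker of any list was at 0, and those of several other cells differed between the groups. Summed macrophage markers ranged over 442 to 1230 in Control and over 5874 to 8047 in AdCKO (8 of 9 genes were called higher and 0 lower), and summed fibroblast and preadipocyte markers were at 929 to 1260 against 3423 to 4996, with 6 of 6 called higher. Skeletal muscle markers summed to 82 to 108 in Control, 128 in AdCKO replicate 3 and 114 in AdCKO replicate 5, but to 5135, 19274 and 7460 in AdCKO replicates 1, 2 and 4. Sums of Control and AdCKO overlapped for lymphoid (41 to 72 and 55 to 235), endothelial (1433 to 1798 and 1471 to 1990), smooth muscle (855 to 1036 and 819 to 1318) and Schwann cell markers (484 to 759 and 302 to 537). In these whole-tissue libraries, fewer adipocytes and less RNA of a gene per adipocyte cannot be told apart, and the part of the other cell types in the results was not tested.

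**Figure D1:**
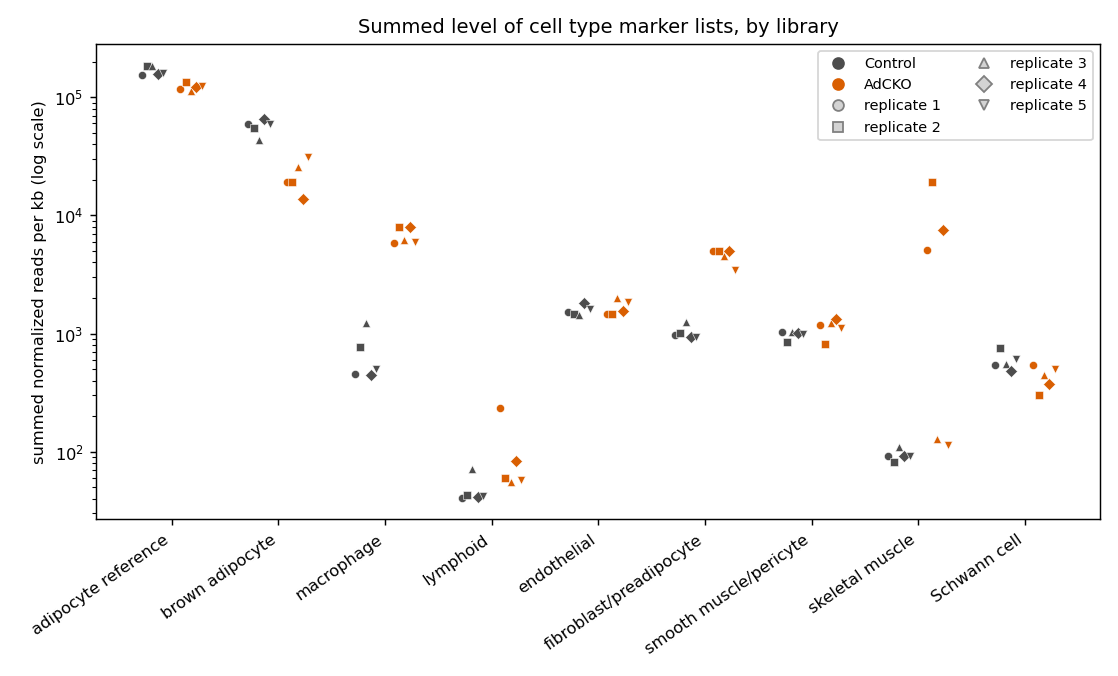
Summed normalized reads per kb (vertical axis, log scale) of each cell type marker list (horizontal axis) in the 10 libraries, Control in grey and AdCKO in orange, with 1 symbol shape per replicate number. The adipocyte, brown adipocyte, macrophage and fibroblast sums of the 2 groups do not overlap, and the skeletal muscle sum stands far apart only in AdCKO replicates 1, 2 and 4.

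All of the receptor and lipolysis genes fell in AdCKO. A gene was called where limma's adjusted p on log2(value + 1) was under 0.01, and on that test 9 of 9 members were lower, against 28% of the 11244 genes tested (53.6% were called in either direction). The groups did not overlap for 8 of 9 members, against 26.4% of all genes tested that were lower without overlap (50.9% in either direction). The median log2 difference of the members was -0.86, with a range from -1.60 to -0.39, and that of all genes tested was -0.01. A difference of -1 or below was found in 4 of 9 members and in 6.17% of all genes tested. The members were high in level, with Control means from the 83.1 (Adrb1) to the 99.9 (Pnpla2) percentile of all genes measured. The shares over all genes are therefore not shares of genes at a like level, which were not compared. The calls over all genes were split into 47.7% higher and 52.3% lower with the authors' normalization. That split became 86.5% higher and 13.5% lower when all libraries were scaled to the same total, and 75.2% higher and 24.8% lower when 6 adipocyte genes were held level, so the members are also given below under those scalings.

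The promoters of the members were searched for motifs in the 250 bases before the transcript start of the deposited gene model, read from the mm9 genome. The E-box CACGTG was present in the windows of Prkar2b, Lipe and Mgll, 3 of 9 members, and in 7.88% of the windows of all 15073 genes searched. The windows of Lipe (chr7:26181007-26181256, minus strand), Mgll (chr6:88674156-88674405, plus strand) and Prkar2b (chr12:32746145-32746394, minus strand) are shown because they share this motif, which is in capitals 155, 44 and 78 bases before the start.
Lipe: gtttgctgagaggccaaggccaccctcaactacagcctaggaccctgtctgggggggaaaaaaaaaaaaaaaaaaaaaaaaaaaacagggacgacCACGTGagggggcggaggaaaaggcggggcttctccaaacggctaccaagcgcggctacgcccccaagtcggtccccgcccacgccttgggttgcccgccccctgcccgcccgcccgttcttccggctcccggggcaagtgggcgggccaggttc
Mgll: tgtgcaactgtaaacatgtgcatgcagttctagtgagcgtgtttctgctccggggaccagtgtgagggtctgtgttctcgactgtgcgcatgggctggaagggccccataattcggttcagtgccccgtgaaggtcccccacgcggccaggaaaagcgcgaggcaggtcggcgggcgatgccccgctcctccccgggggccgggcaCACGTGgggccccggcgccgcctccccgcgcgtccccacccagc
Prkar2b: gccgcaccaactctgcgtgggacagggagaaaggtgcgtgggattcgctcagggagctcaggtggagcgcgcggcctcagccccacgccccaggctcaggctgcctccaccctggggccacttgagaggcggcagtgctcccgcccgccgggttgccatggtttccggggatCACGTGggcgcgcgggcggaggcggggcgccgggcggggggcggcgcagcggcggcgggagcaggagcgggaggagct

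The short cAMP response element TGACG, searched on both strands, was present in the windows of Pde3b, Abhd5 and G0s2, 3 of 9 members, and in 24.9% of all windows. The windows of Abhd5 (chr9:122260484-122260733, plus strand) and G0s2 (chr1:195099383-195099632, minus strand) are shown because these lipase regulators are the members that fell least. The capitals mark TGACG in Abhd5 and its reverse complement in G0s2.
Abhd5: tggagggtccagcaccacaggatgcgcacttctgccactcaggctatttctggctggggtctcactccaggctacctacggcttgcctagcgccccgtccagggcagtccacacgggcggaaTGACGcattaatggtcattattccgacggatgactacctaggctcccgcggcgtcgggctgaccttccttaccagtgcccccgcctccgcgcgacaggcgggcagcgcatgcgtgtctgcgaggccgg
G0s2: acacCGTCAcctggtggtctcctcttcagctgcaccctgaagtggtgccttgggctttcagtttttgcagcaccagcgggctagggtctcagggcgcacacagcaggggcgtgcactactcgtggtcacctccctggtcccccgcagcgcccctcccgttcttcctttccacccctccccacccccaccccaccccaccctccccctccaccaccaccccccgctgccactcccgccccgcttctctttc
The full cAMP response element TGACGTCA was in 0 of 9 members and 2.5% of all windows, and the C/EBP core TTGCNNAA in 0 of 9 and 7.54%. The GC box GGGCGG was in 7 of 9 members and 56.0% of all windows. A match is a description of the letters in the window and not of a bound site.

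At the receptors, Adrb1 and Adrb3 both fell. Adrb3 encodes the β3-adrenergic receptor, the form that marks rodent adipocytes, and lies on chromosome 8 (chr8:28336248-28340060, minus strand). Its level was 523, 935, 775, 975 and 837 in Control replicates 1 to 5, and 323, 400, 325, 467 and 352 in AdCKO replicates 1 to 5. The groups did not overlap, with Control replicate 1 nearest to the AdCKO range. The means were 809 ± 178 and 373 ± 60.9 (SD, n = 5 each), so that AdCKO held 46.1% of the Control level (log2 difference -1.10 ± 0.16 SE, adjusted p = 7.89e-05). Adrb1, the β1-adrenergic receptor of heart and adipose tissue, lies on chromosome 19 (chr19:56796862-56799352, plus strand). It was measured at 163, 155, 131, 227 and 284 in Control and at 55.1, 66.7, 64.2, 47.5 and 71.4 in AdCKO. Control varied more than AdCKO, but its lowest library was still above the highest AdCKO library. The fall from 192 ± 62.6 to 61.0 ± 9.60, to 31.8% of Control, was the largest among the members (log2 difference -1.60 ± 0.19, adjusted p = 1.37e-05).

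Between the receptors, the ratio of Adrb1 to Adrb3 within a library was 0.244 ± 0.080 in Control against 0.168 ± 0.040 in AdCKO, and the groups overlapped. The log2 difference of this ratio was -0.50 ± 0.28, with an exact rank interval (coverage 96.8%) from -1.17 to 0.26, and an exact two-sided permutation p of 0.143 (adjusted over 8 ratios, p = 0.19). An unequal fall of the receptors was therefore not shown, and the interval leaves room for one in either direction.

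Pde3b and Prkar2b act on and after cAMP. Pde3b, the phosphodiesterase through which insulin lowers cAMP in adipocytes, lies on chromosome 7 (chr7:121558768-121681451, plus strand). It was at 605, 463, 480, 540 and 575 in Control and at 329, 294, 318, 296 and 327 in AdCKO. The AdCKO libraries were close to each other and all below the lowest Control library, with means of 533 ± 60.6 and 313 ± 16.9 (log2 difference -0.76 ± 0.08, adjusted p = 6.15e-06). Prkar2b encodes RIIβ, the regulatory subunit of protein kinase A that is abundant in adipose tissue, on chromosome 12 (chr12:32643344-32746144, minus strand). Its level was 5382, 4315, 4142, 4608 and 5001 in Control and 2490, 2519, 2980, 2412 and 2865 in AdCKO. No AdCKO library reached the Control range, and AdCKO held 56.6% of the Control mean (4690 ± 506 against 2653 ± 252, log2 difference -0.82 ± 0.10, adjusted p = 1.28e-05).

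The other regulatory and degrading enzymes did not move alike. Prkar1a, the ubiquitous regulatory subunit, was at 693 ± 71.1 in Control and 718 ± 44.0 in AdCKO and was not called (log2 difference 0.05 ± 0.08, adjusted p = 0.576), but was called higher at the same total (0.54, adjusted p = 0.000109). The ratio of Prkar2b to Prkar1a within a library was 7.18, 6.90, 6.83, 6.22 and 6.72 in Control and 3.64, 3.64, 3.75, 3.42 and 4.01 in AdCKO. This ratio fell in AdCKO without overlap (log2 difference -0.87 ± 0.05, exact permutation p = 0.0079, adjusted p = 0.0159). The ratio of Pde3b to the cAMP-specific phosphodiesterase Pde4d was 2.75 ± 0.26 and 2.07 ± 0.44, and fell with overlapping groups (log2 difference -0.44 ± 0.15, exact permutation p = 0.0159, adjusted p = 0.0254). This last call was lost without Control replicate 2, 3, 4 or 5, with log2 differences from -0.46 to -0.39. A ratio shows that 2 genes changed unequally, and not which of them stayed level.

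All lipases fell, and Pnpla2 and Lipe were the most abundant members in both groups. Pnpla2, adipose triglyceride lipase, which takes the first fatty acid from triglyceride, lies on chromosome 7 (chr7:148641087-148646642, plus strand). Its level was 12868, 14490, 13369, 12151 and 11893 in Control and 5741, 5462, 4251, 6150 and 6166 in AdCKO. The groups were far apart, and AdCKO replicate 3 was the lowest of its group. The means were 12954 ± 1038 and 5554 ± 786, a fall to 42.9% (log2 difference -1.23 ± 0.12, adjusted p = 2.01e-06).

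Lipe, hormone-sensitive lipase, which acts mainly on diglyceride and is a substrate of protein kinase A, lies on chromosome 7 (chr7:26164546-26181006, minus strand). It was at 7452, 9622, 8330, 8113 and 7446 in Control and at 3478, 3494, 2747, 4101 and 4142 in AdCKO. AdCKO replicate 3 was again the lowest library, and the groups were far apart. AdCKO held 43.8% of the Control mean (8193 ± 891 against 3592 ± 570, log2 difference -1.20 ± 0.12, adjusted p = 3.98e-06). The annotated exons of Lipe, over all its transcripts, share 264 bases with 4732471J01Rik on the other strand. Whether those bases were among the counted ones was not checked. Without a stated strand setting the reads of such bases cannot be told apart.

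Mgll, monoglyceride lipase, which releases the last fatty acid and glycerol, lies on chromosome 6 (chr6:88674406-88778354, plus strand). Its level was 3395, 3901, 3176, 3688 and 3432 in Control and 1962, 2042, 1761, 1962 and 1923 in AdCKO. The spread within AdCKO was narrow, and the groups did not overlap. The means of 3518 ± 281 and 1930 ± 104 differed by -0.86 ± 0.08 on the log2 scale (adjusted p = 1.33e-06), with 54.9% of the Control level left in AdCKO. The annotated exons of Mgll share 90 bases with Gm16628 on the other strand, a limit of the same kind as for Lipe.

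The regulators of adipose triglyceride lipase fell less than the lipase itself. Abhd5, also named CGI-58, is its coactivator and lies on chromosome 9 (chr9:122260734-122290641, plus strand). It was at 421, 457, 325, 479 and 416 in Control and at 322, 345, 314, 312 and 291 in AdCKO. This was the only member whose groups overlapped, through Control replicate 3, which was below AdCKO replicate 2. The means were 420 ± 58.8 and 317 ± 19.9, 75.5% of Control (log2 difference -0.39 ± 0.10, adjusted p = 0.00358). The call was lost without Control replicate 2 (-0.36, adjusted p = 0.0106) and without Control replicate 4 (-0.34, adjusted p = 0.0104).

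G0s2, the inhibitor of adipose triglyceride lipase, lies on chromosome 1 (chr1:195098354-195099382, minus strand). Its level was 2629, 3147, 2576, 2664 and 2822 in Control and 1766, 2493, 1578, 2007 and 1653 in AdCKO. AdCKO replicate 2 came close to the lowest Control library, while the other AdCKO libraries were well below it. AdCKO held 68.6% of the Control mean (2768 ± 231 against 1900 ± 369, log2 difference -0.56 ± 0.12, adjusted p = 0.0014). With single genes compared by an exact two-sided permutation test, p was 0.0159 for Abhd5 and 0.0079, the smallest that 5 against 5 mice allow, for the other 8 members.

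**Figure D2:**
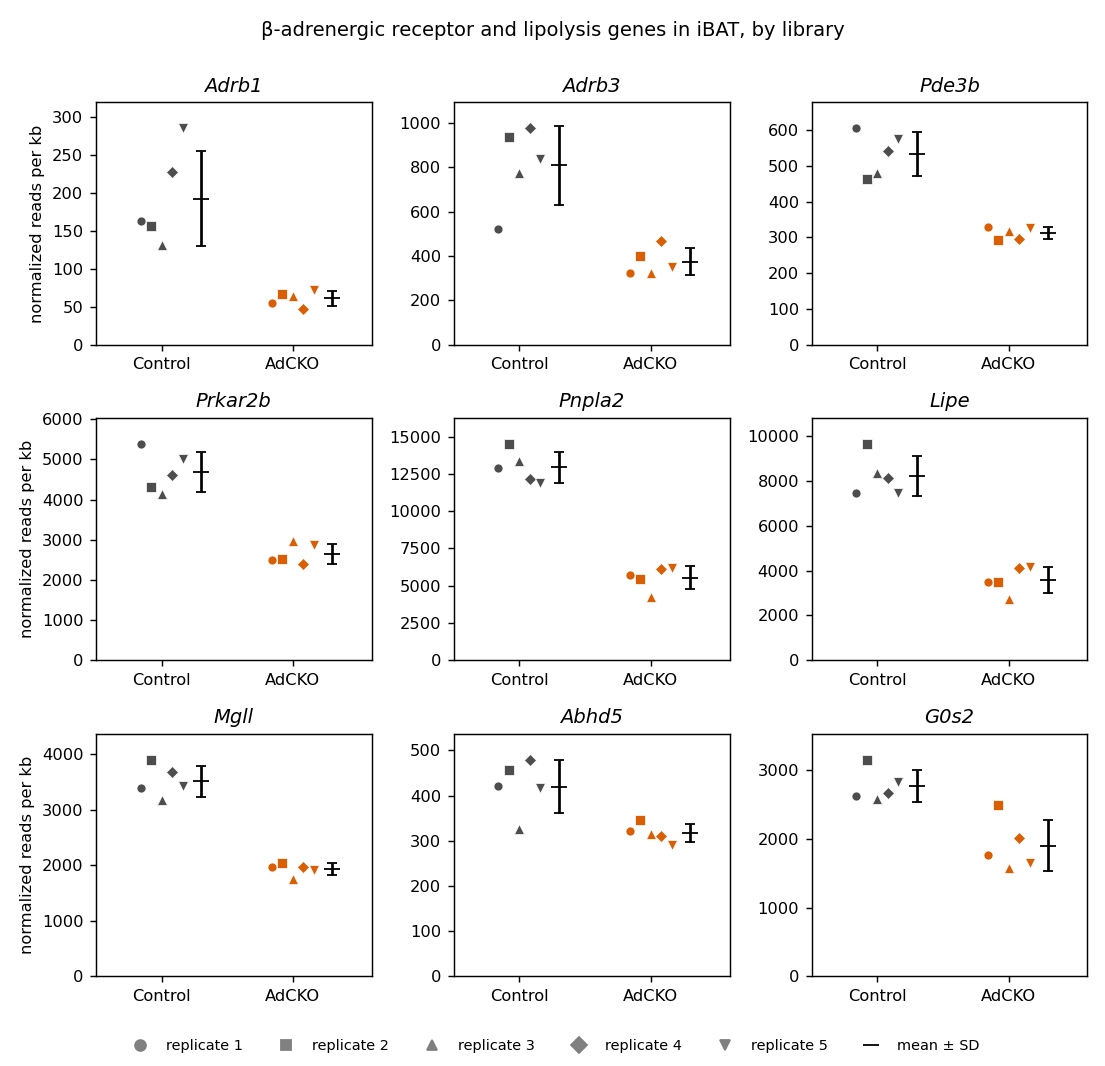
Normalized reads per kb (vertical axes, from 0) of each member in the 5 Control (grey) and 5 AdCKO (orange) libraries, with 1 symbol shape per replicate number and the mean ± SD beside the points. All AdCKO points lie below all Control points in 8 of 9 panels, and in the Abhd5 panel Control replicate 3 (325) lies below AdCKO replicate 2 (345).

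A factor applied to a whole library leaves its ratios as they are, and the ratios of both regulators to Pnpla2 separated the groups. Quantile normalization is not such a factor, and the ratios were not tested under it. There the log2 differences of Pnpla2, Abhd5 and G0s2 were -0.35, -0.23 and -0.07. They were closer together than with the authors' normalization (-1.23, -0.39 and -0.56). The ratio of G0s2 to Pnpla2 was 0.204, 0.217, 0.193, 0.219 and 0.237 in Control and 0.308, 0.456, 0.371, 0.326 and 0.268 in AdCKO. Every AdCKO library was above every Control library (log2 difference 0.67 ± 0.14, exact permutation p = 0.0079, adjusted p = 0.0159). The ratio of Abhd5 to Pnpla2 was 0.0327, 0.0315, 0.0243, 0.0394 and 0.0350 in Control and 0.0562, 0.0633, 0.0739, 0.0507 and 0.0471 in AdCKO. It also rose without overlap (log2 difference 0.84 ± 0.16, exact permutation p = 0.0079, adjusted p = 0.0159). Between the inhibitor and the coactivator no difference was shown. The ratio of G0s2 to Abhd5 was 6.68 ± 0.87 and 5.97 ± 0.86, and its log2 difference of -0.16 ± 0.12 had an exact rank interval from -0.48 to 0.21 (adjusted p = 0.254).

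Among the lipases, Lipe and Pnpla2 kept close to the same ratio. It was 0.632 ± 0.036 in Control and 0.646 ± 0.026 in AdCKO, with a log2 difference of 0.03 ± 0.05 and an exact rank interval from -0.06 to 0.16 (exact permutation p = 0.492, adjusted p = 0.492). Mgll fell less than Lipe. The ratio of Mgll to Lipe was 0.456, 0.405, 0.381, 0.455 and 0.461 in Control and 0.564, 0.584, 0.641, 0.478 and 0.464 in AdCKO, which did not overlap, although AdCKO replicate 5 was only just above Control replicate 5 (log2 difference 0.33 ± 0.10, exact permutation p = 0.0079, adjusted p = 0.0159). Without Control replicate 1, 2, 3 or 4 this call was lost, with log2 differences from 0.29 to 0.35. After quantile normalization, under which the ratio was not tested, Mgll and Lipe fell by similar amounts (-0.32 and -0.38).

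**Figure D3:**
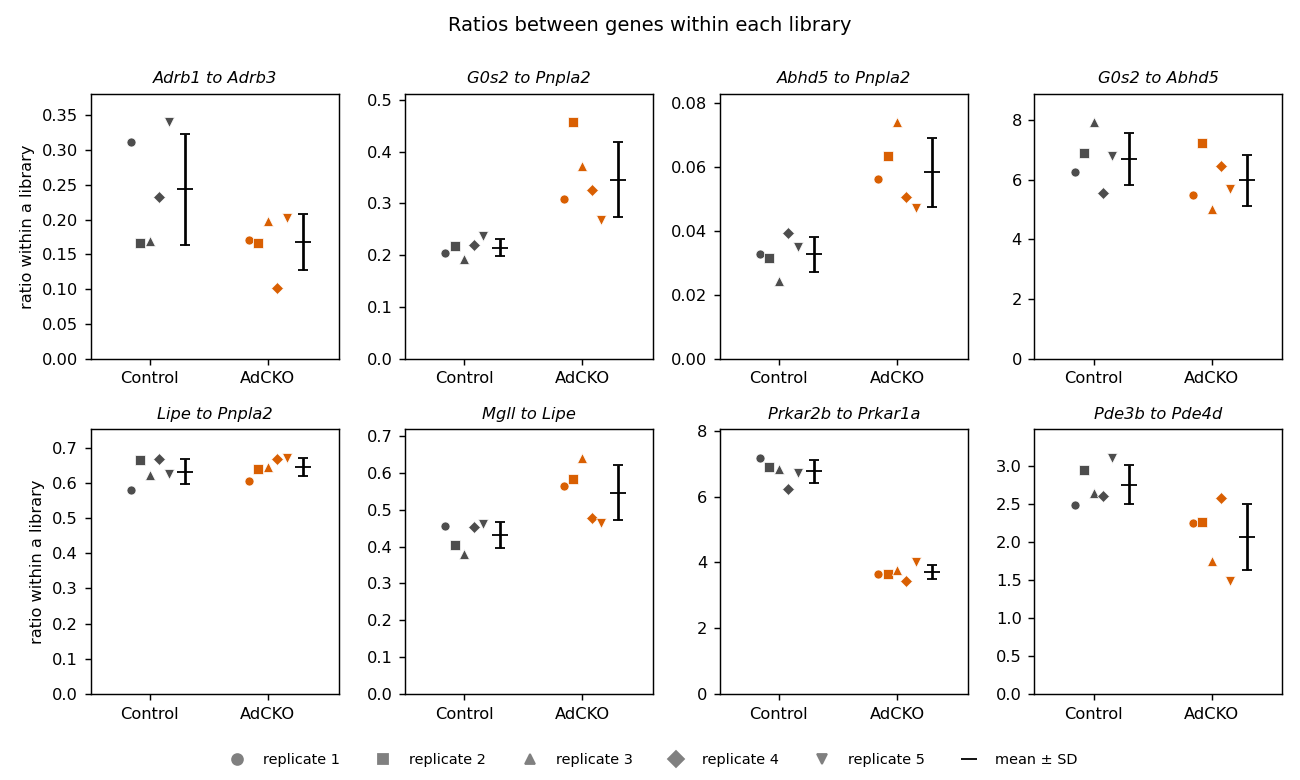
The 8 ratios between named genes within a library (vertical axes, from 0) in Control (grey) and AdCKO (orange), with 1 symbol shape per replicate number and the mean ± SD. The ratios of G0s2, Abhd5 and Prkar2b to their partner Pnpla2 or Prkar1a separate the groups, while Lipe to Pnpla2 stays between 0.579 and 0.672 in all libraries.

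The order of the levels was nearly the same in both groups. In Control it ran from Pnpla2 over Lipe, Prkar2b, Mgll, G0s2, Adrb3, Pde3b and Abhd5 to Adrb1. The ranges of Adrb3 and Pde3b overlapped, as did those of Pde3b and Abhd5. In AdCKO the order of Pde3b and Abhd5 was exchanged, with overlapping ranges, and the pairs Lipe and Prkar2b, Mgll and G0s2, and Adrb3 and Abhd5 overlapped too. No library was the lowest for all members. AdCKO replicate 3 was the lowest of its group in Pnpla2, Lipe, Mgll and G0s2 and the highest in Prkar2b, and Control replicate 3, which had the highest macrophage sum of its group, was the lowest in 5 members.

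Other scalings of the libraries divided the members. With the same total in every library, which moved the median of all genes tested by 0.48 on the log2 scale, 6 of 9 members were lower, against 9.57% of all genes tested. With 6 adipocyte genes (Adipoq, Fabp4, Cidec, Pparg, Retn and Cfd) held level, which moved that median by 0.25, 5 of 9 were lower, against 9.03%. With 4 of the adipocyte genes held level (without Retn and Cfd, a setting chosen after the data were seen) it was again 5 of 9, against 7.89%. Quantile normalization also left 5 of 9, against 31.2%. Adrb1, Adrb3, Pnpla2 and Mgll were called lower under each of these scalings. Their log2 differences were -1.12, -0.61, -0.75 and -0.38 at the same total. With the 6 adipocyte genes held level they were -1.35, -0.84, -0.98 and -0.61, and after quantile normalization -1.60, -0.89, -0.35 and -0.32. Lipe lost its call after quantile normalization (-0.38, adjusted p = 0.0149). Prkar2b lost its call after quantile normalization (-0.14, adjusted p = 0.23) and with the adipocyte genes level (-0.57, adjusted p = 0.0211). Pde3b lost its call at the same total (-0.28, adjusted p = 0.0111) and with the adipocyte genes level (-0.51, adjusted p = 0.0283). G0s2 was called under none of them (-0.08, adjusted p = 0.532 at the same total, -0.31, adjusted p = 0.188 with the adipocyte genes level, and -0.07, adjusted p = 0.621 after quantile normalization). Abhd5 was also called under none of these scalings. Its direction turned at the same total (0.085, adjusted p = 0.416) and with 4 adipocyte genes level (0.12, adjusted p = 0.352). It was at -0.14 with 6 adipocyte genes level (adjusted p = 0.563) and at -0.23 after quantile normalization (adjusted p = 0.0449). With the authors' normalization, 9 of 9 members were below the median of all genes tested. A factor applied to a whole library moves the members and that median nearly alike. The settings at the same total and with the adipocyte genes level, again 9 of 9, could therefore not change this. After quantile normalization, which is not such a factor, 8 of 9 were below that median.

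**Figure D4:**
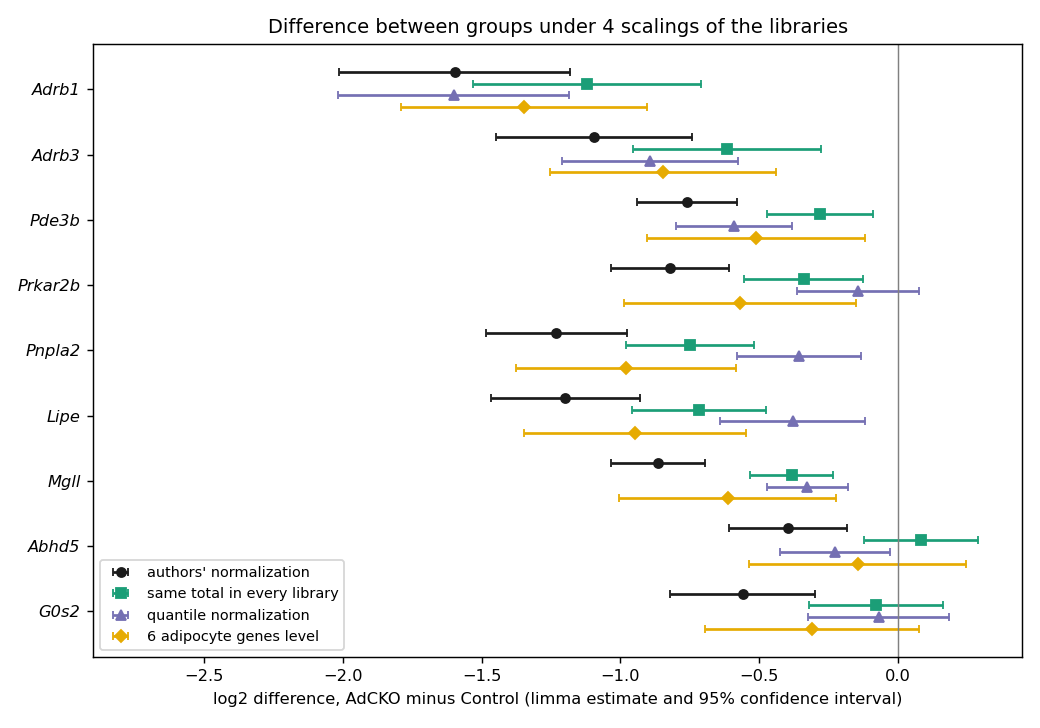
Log2 difference between AdCKO and Control (horizontal axis) with its 95% confidence interval from limma for the 9 members (vertical axis) under the authors' normalization and 3 other scalings of the libraries. The points of Adrb1 and Adrb3 lie left of 0 throughout, while those of Abhd5 at the same total (0.085) and G0s2 after quantile normalization (-0.07) lie near 0.

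The adipocyte genes themselves were not level under the authors' normalization. Adipoq, which encodes adiponectin, fell by 0.52 on the log2 scale (adjusted p = 0.00383), the lipid droplet gene Cidec fell by 0.64 (adjusted p = 0.0044) and the adipocyte regulator Pparg fell by 0.47 (adjusted p = 0.00536). Retn, which encodes resistin, rose by 1.42 (adjusted p = 0.00022). The fatty acid carrier Fabp4 (-0.44, adjusted p = 0.0205) and the adipokine Cfd (-0.86, adjusted p = 0.0582) were not called. In direction, Adipoq and Cidec turned after quantile normalization (0.29 and 0.18), and Pparg and Fabp4 at the same total (0.015 and 0.039). Adipoq, Cidec and Pparg were not called lower under any of the other scalings. Where the adipocyte genes were held level, their mean was fixed by the scaling, so those settings cannot show whether they fell. Several of these calls also rested on single libraries. That of Adipoq was lost without Control replicate 2 or 3 (-0.50 and -0.46), that of Cidec without Control replicate 1 or 2 or AdCKO replicate 5 (-0.60, -0.60 and -0.58), and that of Pparg without Control replicate 1, 4 or 5 or AdCKO replicate 1, 2 or 4 (-0.47 to -0.40), while Fabp4 was called without AdCKO replicate 5 (-0.46).

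With AdCKO replicates 3 and 5 alone, the libraries low in skeletal muscle markers, 8 of 9 members were lower, against 19.7% of all genes tested. The differences were then -1.34 for Pnpla2, -1.27 for Lipe, -1.22 for Adrb3 and -0.93 for Mgll, larger in size than with all libraries, and -1.43 for Adrb1, -0.71 for Pde3b and -0.68 for Prkar2b, which were smaller. G0s2 differed by -0.77, and Abhd5 was not called (-0.46, adjusted p = 0.0175).

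The rest of the pathway did not fall as a whole. Of 129 further genes on 8 lists, 109 passed the filter of a mean of 10 in either group, and of these 31 were higher, 32 lower and 46 not called, with a median of 0.02. Of the 109, 28.4% were higher and 29.4% lower, against 25.6% and 28% of all genes tested. At the same total in every library the split was 62 higher and 20 lower. Over all genes, 7013 of 11431 tested were then higher and 1094 lower. With AdCKO replicates 3 and 5 alone it was 25 higher and 25 lower, against 2083 and 2191 of all 11097 genes tested.

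Among 15 other adrenergic and G protein-coupled receptors tested of 22, 7 fell and 4 rose (median -0.49). Adra1a, the α1A-adrenergic receptor, fell from 131 ± 21.2 to 27.7 ± 7.07 (log2 difference -2.22 ± 0.16, adjusted p = 1.8e-07), and Adra1d fell from 65.9 ± 15.6 to 29.5 ± 2.96. Adora1, the antilipolytic adenosine A1 receptor, was at 347, 447, 418, 287 and 369 in Control and at 91.7, 96.6, 62.5, 145 and 153 in AdCKO, so the groups were far apart (log2 difference -1.81 ± 0.22, adjusted p = 1.38e-05). Ffar2, a receptor for short-chain fatty acids, rose from 11.7 ± 1.45 to 42.1 ± 9.39, and the neuropeptide Y receptor Npy1r and the prostaglandin E receptor Ptger4 rose from 6.36 ± 2.01 to 11.4 ± 1.40 and from 19.4 ± 4.85 to 30.2 ± 4.65. The call of Ptger4 was lost without Control replicate 1, 4 or 5, with an adjusted p of at most 0.0108, and after quantile normalization (0.33, adjusted p = 0.0722). That of Npy1r was lost after quantile normalization (0.20, adjusted p = 0.277) and with AdCKO replicates 3 and 5 alone (0.77, adjusted p = 0.0151).

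G proteins and adenylyl cyclases were split, with 6 lower, 5 higher and 4 not called of 15 tested. Gnas, which encodes the stimulatory G protein that couples β-receptors to cyclase and was named after its values were seen, as Plin1, Plin5 and Dio2 below were, was at 8149 ± 1464 and 4195 ± 959 (log2 difference -0.97 ± 0.17, adjusted p = 0.000311). The cyclases themselves went both ways. Adcy9 fell from 81.4 ± 5.91 to 38.6 ± 2.71 and Adcy6 from 402 ± 63.9 to 203 ± 7.09, while Adcy5 rose from 10.1 ± 2.50 to 42.3 ± 11.4 and Adcy7 rose by 1.94 on the log2 scale. Of the other G proteins, Gna11, an α subunit that couples to phospholipase C, fell by 0.77 on the log2 scale (not called with the adipocyte genes level, -0.51, adjusted p = 0.0201), and the inhibitory Gnai2 rose by 0.64. Of 8 desensitization genes tested, 2 fell, 1 rose and 5 were not called. Adrbk2, a receptor kinase, fell from 229 ± 18.01 to 66.6 ± 16.6 (log2 difference -1.80 ± 0.14), Grk5, another receptor kinase, differed by -0.41 ± 0.10 (adjusted p = 0.0035), a direction that turned at the same total (0.064), and Arrb2, a β-arrestin, rose from 30.3 ± 3.79 to 76.1 ± 14.5. The call of Grk5 was also lost without Control replicate 2 or AdCKO replicate 1, with an adjusted p of at most 0.0103, and with AdCKO replicates 3 and 5 alone (-0.35).

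On the lipid droplet and around the lipases, 8 genes were lower, 3 higher and 10 not called of 21 tested, with a median of -0.12. Pnpla3, a close relative of adipose triglyceride lipase, fell from 1573 ± 526 to 269 ± 84.3 (log2 difference -2.54 ± 0.25, adjusted p = 2.53e-06). Ces1d, a carboxylesterase with triglyceride hydrolase activity, fell from 4237 ± 603 to 1129 ± 170 (-1.91 ± 0.12), and the phospholipase Ddhd2 from 939 ± 86.4 to 402 ± 73.4. The droplet coat genes Plin1 and Plin5 were at 6594 ± 518 and 1136 ± 128 in Control and at 4306 ± 459 and 600 ± 64.8 in AdCKO, with adjusted p of 0.000127 and 5.78e-06. Hilpda, which like G0s2 encodes an inhibitor of adipose triglyceride lipase, rose from 28.8 ± 2.90 to 59.3 ± 5.70 (log2 difference 1.02 ± 0.09, adjusted p = 1.26e-06). Daglb, a diacylglycerol lipase, rose by 1.04, and Lpl, the lipase that takes fatty acids from circulating lipoproteins, rose from 11520 ± 1656 to 18044 ± 1541.

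Of the other phosphodiesterases, 6 were higher, 3 lower and 3 not called of 12 tested of 17, among them Pde8a (-1.06), Pde4a (-1.13) and Pde1a (-0.95), which fell, and Pde10a (0.83), Pde1b (0.80) and Pde5a (0.79), which rose from Control means of 9.02 ± 1.00, 16.8 ± 3.22 and 6.72 ± 1.58. The calls of Pde5a (0.26, adjusted p = 0.211) and Pde10a (0.41, adjusted p = 0.071) were lost after quantile normalization, that of Pde1a at the same total (-0.48, adjusted p = 0.0105) and that of Pde1b with AdCKO replicates 3 and 5 alone (0.69, adjusted p = 0.0122). Pde4d was not called (195 ± 32.2 against 158 ± 42.3, adjusted p = 0.108). Of the other protein kinase A subunits, inhibitors and anchors, 4 were lower, 3 higher and 7 not called of 14 tested. The catalytic subunit gene Prkaca was at 1480, 1835, 1547, 1655 and 1689 in Control and at 667, 738, 810, 653 and 850 in AdCKO, a fall without overlap (log2 difference -1.15 ± 0.09, adjusted p = 5.03e-07). The kinase inhibitor genes Pkia and Pkig rose, Pkig from 69.6 ± 15.3 to 146 ± 15.4. Pkia was at 5.65 to 7.61 in Control and at 39.2, 77.5, 18.7, 50.7 and 19.1 in AdCKO, highest in the AdCKO libraries that were high in skeletal muscle markers, and its log2 difference was 2.21 ± 0.33 with all libraries and 1.33 with AdCKO replicates 3 and 5 alone. The anchors Akap7 and Akap1 fell by 0.89 and 0.98, the latter not called with 4 adipocyte genes level (-0.46, adjusted p = 0.0129), and Akap12 rose by 0.53.

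Of 19 genes of cAMP-responsive transcription, 6 were higher, 2 lower and 11 not called (median 0.19). Ucp1, the uncoupling protein of brown fat, was at 36912 ± 8713 in Control and 14069 ± 4478 in AdCKO (log2 difference -1.42 ± 0.25, adjusted p = 0.000274), a call that was lost after quantile normalization (-0.40, adjusted p = 0.209). The kinase gene Sik2 fell by 1.11. Some other genes known to respond to cAMP rose. Nr4a1, an immediate-early nuclear receptor, was at 29.2, 18.2, 34.7, 52.4 and 24.2 in Control and at 166, 210, 162, 84.6 and 308 in AdCKO (log2 difference 2.48 ± 0.32, adjusted p = 2.69e-05). Ppargc1a, a coactivator of mitochondrial biogenesis, was at 83.9 to 135 in Control and at 452, 327, 901, 247 and 725 in AdCKO, highest in replicates 3 and 5 (2.24 ± 0.30, adjusted p = 3.7e-05), and Fos rose from 9.15 ± 3.13 to 37.9 ± 10.98. Dio2, the deiodinase that activates thyroid hormone, was at 162 ± 80.5 and 285 ± 69.9 and was not called (adjusted p = 0.0145). Of the genes listed for the natriuretic peptide and cGMP arm, 3 of 5 tested of 7 were higher and 0 lower. The guanylyl cyclase receptor Npr1 rose from 95.8 ± 8.43 to 184 ± 19.4 and the clearance receptor Npr3 from 84.6 ± 15.0 to 210 ± 42.3, both without overlap, while Gucy1b3, a subunit of soluble guanylyl cyclase, rose by 0.29, a call that was lost on leaving out any of 7 of the 10 libraries (Control replicate 2, 3 or 4, or AdCKO replicate 1, 3, 4 or 5, with differences from 0.25 to 0.30) and whose direction turned after quantile normalization (-0.0044).

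**Figure D5:**
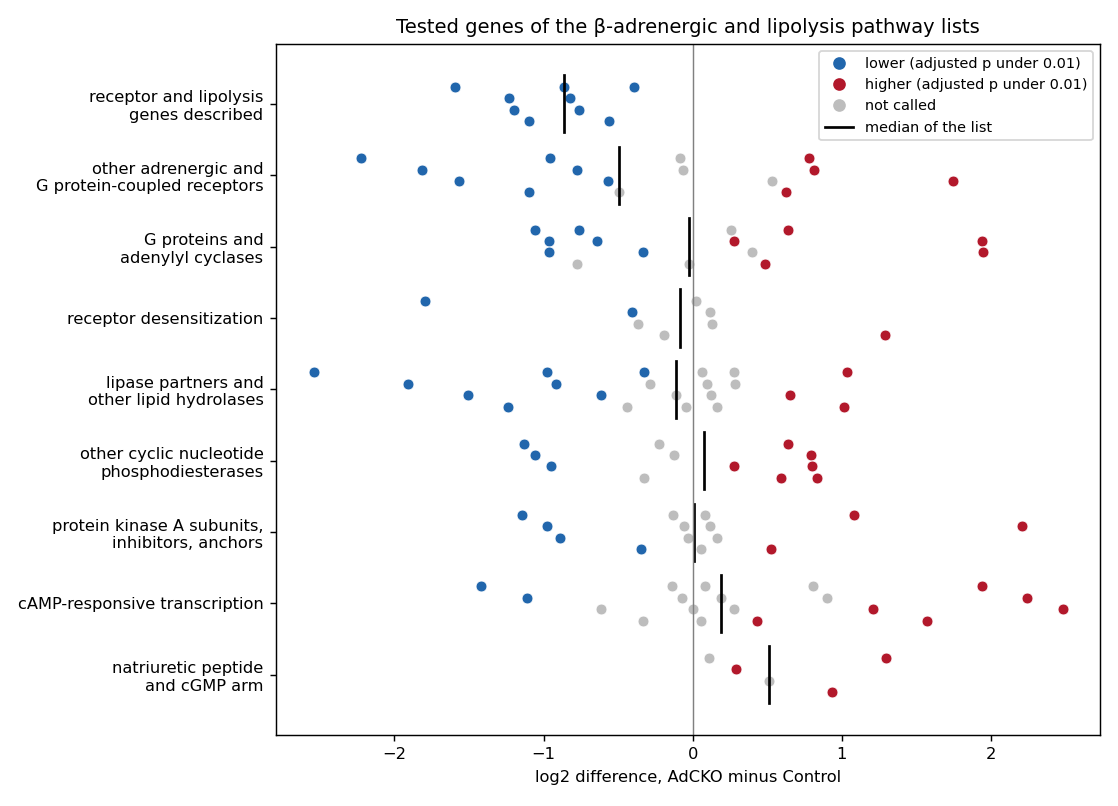
Log2 difference between AdCKO and Control (horizontal axis) of each tested gene, with 1 row of points for the members and 1 for each of the 8 pathway lists (vertical axis), colored by whether limma called it lower (blue), higher (red) or neither (grey), and with the median of the list as a black bar. The members lie wholly left of 0 with a median of -0.86, while the pathway lists have points on both sides of 0.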

How the data were processed

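Poly(A) RNA libraries of iBAT from 5 Control and 5 AdCKO mice were compared. Upstream, the authors aligned reads to mm9 (STAR), built HOMER tag directories, took exon counts from iRNA-seq and applied the normalization of DESeq2. The signal values the authors deposited are normalized reads per kb of counted exon for each library and gene, and not counts. No value is 0, and the transformation behind them is not given in the sources used here. Many step sizes were tried for the size of a read, with a tolerance of 0.1. At the best step, values near whole multiples were 22.3% to 23.6% of low values in Control and 22.6% to 23.1% in AdCKO. A single fixed step gives 20% by chance, and the best of many can give more, so no excess over chance was shown. The authors' group means, log2 fold changes, adjusted p-values and lists of called genes were not used.

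Groups were taken from the labels. Genes whose mean reached 10 in Control or AdCKO (11244) were tested on log2(value + 1) with limma 3.58.1 (intensity trend, two-sided) in R 4.3.3, with Benjamini-Hochberg adjustment and a threshold of 0.01. Errors of log2 differences are SE, and differences on this scale understate the change of low genes. Within-library ratios were compared by an exact two-sided permutation test of log2 ratios, adjusted over 8 ratios, with a threshold of 0.05. Levels are mean ± SD over mice. The limma p-values test the difference of the group means against the spread between mice, moderated over all genes tested. On simulated data with 10935 genes, 90 of 100 genes changed by a log2 difference of 1 and 42 of 100 changed by 0.5 were recovered, with 1 false call. No other genes were changed there, a far smaller share than the 53.6% called in the data, so these rates need not hold for this comparison.

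The members, lists and marker genes were chosen with earlier results of these data known. Named genes were the members, Crls1, up to 3 called genes with the smallest p in each direction of each pathway list, the adipocyte reference genes and the ratio denominators. Cell type marker lists are given as sums and counts, and Ucp1 and Cidea are named as the highest brown adipocyte markers. Promoter sequences and gene models are from the NCBIM37 (mm9) genome, and the alternatives tried were other pseudocounts, filters, scalings, variance models, thresholds, the replicate number as a block and each library left out. Plots were made in Python 3.11.15 (matplotlib 3.10.9).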

Additional observations from a re-analysis of the deposited data

Results flagged for a closer look

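A group of 5 libraries was singled out where the gap of its highest or lowest library to the nearest other was over 0.71 of the whole range (Dixon's test), which chance gives in about 1 of 20 groups. This was so in 6 of 134 groups (4.48%), and in none of the groups of the members. Pde1b was highest in Control replicate 3, at 22.5, with the others between 14.7 and 15.9. Pde10a was lowest in Control replicate 2, at 7.28 against 9.12 to 9.73. Gucy1b3 was also lowest in Control replicate 2, at 17.9 against 20.4 to 21.1. Akap12 was highest in Control replicate 4, at 79.5 against 59.3 to 62.2. Cfd was highest in Control replicate 3, at 12584 against 3951 to 5832. Prkar1a, the denominator of the Prkar2b ratio, was highest in AdCKO replicate 3, at 794 against 685 to 715.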

How the results depend on the processing

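With the authors' normalization 9 members were lower, and 8 to 9 when a library was left out. The count was 5 after quantile normalization and 5 with the adipocyte genes held level, and 5 with 4 adipocyte genes (without Retn and Cfd) held level, a setting chosen after seeing the data. Of the pathway genes 32 were lower and 31 higher. At the same total these counts were 20 and 62, with 4 adipocyte genes level 18 and 62, and with a library left out 28 to 34 and 27 to 30. Over all genes, 7013 of 11431 tested were higher and 1094 lower at the same total. The setting with 4 adipocyte genes held level moved the median of all genes by 0.51. It split the calls into 88.6% higher and 11.4% lower (6976 and 901 of 11425 genes tested).

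Directions turned at the same total and with 4 adipocyte genes level for Abhd5 (0.085 and 0.12), Grk5 (0.064 and 0.10), Pparg (0.015 and 0.050), Fabp4 (0.039 and 0.074) and Pde4d (0.16 and 0.19). After quantile normalization they turned for Adipoq (0.29), Cidec (0.18) and Gucy1b3 (-0.0044), and with AdCKO replicates 3 and 5 alone, also chosen after seeing the data, for Pde4d (0.048). Pparg and Fabp4 are among the 4 adipocyte genes held level, so their values in that setting were bound by the scaling. The cause of the turns was not tested.

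Same-numbered libraries did not deviate together (correlations of -0.27 to 0.10, with 0 of 5 Control libraries closest to their own number), so the numbers were not taken as pairs. With the replicate block all members stayed lower, Adipoq, Pparg and Gucy1b3 were no longer called (-0.52, -0.47 and 0.29), and 5430 genes were called in place of 6031. Paired by number, the log2 ratios of G0s2 to Pnpla2 (0.67), Abhd5 to Pnpla2 (0.84), Mgll to Lipe (0.33), Prkar2b to Prkar1a (-0.87) and Pde3b to Pde4d (-0.44) had an adjusted p of 0.1, the smallest 5 pairs allow being 0.0625. With AdCKO replicates 3 and 5 alone they were 0.56, 0.87, 0.34, -0.80 and -0.76 with an adjusted p of 0.0762, where no p can be under 0.0476. The ratio of Mgll to Lipe ranged from 0.27 to 0.39 with a library left out and was not called without Control replicate 1, 2, 3 or 4. That of Pde3b to Pde4d ranged from -0.52 to -0.33 and was not called without Control replicate 2, 3, 4 or 5.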
